A study of Homo sapiens with 6 samples.

Results

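The nuclear lamina and its membrane partners were followed as 10 genes in SaOS-2 cells, a human osteosarcoma line: LMNA, LMNB1 and LMNB2 (lamins), LBR, TMPO, EMD, LEMD2, LEMD3 and SUN2 (inner nuclear membrane or associated proteins) and BANF1 (a chromatin protein that binds several of them). The members were the rows of the deposited table with these symbols, 10 of 23228, and all 10 were among the 13255 genes that passed the filter on low values and were tested. After induction of p21, the transcripts of LBR, TMPO, SUN2, BANF1, LMNB1 and LMNA fell, to between 73.8% and 87.2% of their level in uninduced cells. Of all genes tested, 12.7% were lower. No member was called higher, against 10.5% of all genes tested, and LMNB2, EMD, LEMD2 and LEMD3 did not pass the test.

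Lamins are intermediate filament proteins that form a meshwork under the inner nuclear membrane. A-type lamins come from LMNA by alternative splicing and B-type lamins from LMNB1 and LMNB2, and membrane proteins such as LBR and the LEM domain family tie the meshwork to chromatin. The meshwork is taken apart and rebuilt at each mitosis, and loss of LMNB1 is a widely used marker of senescence, a lasting exit from the cell cycle.

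All 6 libraries were made from SaOS-2 cells carrying a doxycycline-inducible p21 vector, in a line described by the study as null for RB. The 3 p21 OFF libraries came from untreated cells, and the 3 p21 ON libraries from cells given 1 μg/ml doxycycline for 24 h by the sample labels. Messenger RNA was sequenced, and the values are read counts per gene divided by a size factor for each library, called normalized counts here. No library of doxycycline-treated cells without the vector was analysed here, so the drug and p21 cannot be told apart. The RNA came from whole cultures, in which fewer cells of a kind and less RNA per cell cannot be told apart. The study calls its replicates biological, but the labels do not say whether they were separate cultures, so the p-values measure the spread between these libraries.

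Between 12795490 and 21975045 reads on genes were recovered per p21 OFF library and between 12918390 and 16630552 per p21 ON library. CDKN1A, which encodes p21, stood at 1266 ± 84.5 (SD, n = 3) normalized counts in p21 OFF and 43691 ± 3138 (SD, n = 3) in p21 ON, with the vector and the cell's own gene counted together. The osteoblast markers ALPL, SPARC, COL1A1, SP7 and RUNX2 were high in every library, SPP1 stayed at or below 2.96 normalized counts and BGLAP was listed at 0 in all 6. The summed osteoblast level was 71373 to 74082 normalized counts in p21 OFF and 72414 to 75635 in p21 ON, with 1 of 6 tested markers lower (IBSP) and none higher. Markers of epithelial, blood and endothelial cells summed to 325 to 399 and 319 to 350 normalized counts, mostly from EPCAM, and none of the 2 tested passed the test. RB1 transcript was present at 497 to 697 (log2 fold change 0.24, adjusted p = 0.0516, and 0.33 with an adjusted p of 0.0143 without p21 OFF replicate 2). Replicate 1 of p21 OFF, the shallowest library, stood apart from the other p21 OFF libraries, with a chi-square per gene of 8.50 and 9.26 against them where the other pairs within a group gave 2.71 to 3.98.

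The bases just before the start of the canonical transcript are shown for 6 members. They set the letters of sites found in cell cycle promoters beside the values of those genes. The windows ran from 250 bases before to 50 bases after the start of the canonical transcript on GRCh37 (hg19). The motifs searched on both strands were TTTGAA (called CHR), the E2F letters TTGGCGC or TTCCCGC or TTGCCGC or TTCGCGC, and the letters CCAAT, and no matches overlapped. Each segment is read 5′ to 3′ along the gene's strand, with matches in capitals.
LBR: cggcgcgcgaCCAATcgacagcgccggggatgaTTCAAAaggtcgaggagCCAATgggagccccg
SUN2: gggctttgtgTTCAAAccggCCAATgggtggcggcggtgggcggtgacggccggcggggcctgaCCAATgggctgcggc
TMPO: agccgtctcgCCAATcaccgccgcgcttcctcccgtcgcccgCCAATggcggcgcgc
LMNB1: cctgctccccATTGGcccatggtag
BANF1: aaggcagggcTTCCCGCgaaggaccgg
LMNB2: gttcTTTGAAcacgttttga
The segments lie at chr1:225615856-225615920 (LBR, minus strand), chr22:39152046-39152124 (SUN2, minus), chr12:98909294-98909350 (TMPO, plus), chr5:126112680-126112704 (LMNB1, plus), chr11:65769802-65769828 (BANF1, plus) and chr19:2457188-2457207 (LMNB2, minus). All lie upstream of the canonical start. Those of LMNB1 and BANF1 lie inside the first exon of longer annotated transcripts. That of TMPO lies inside an exon of TMPO-AS1 on the opposite strand. Those of LBR and SUN2 also lie inside the annotated spans of their genes, which extend further upstream.

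LBR and SUN2 hold CHR letters on the reverse strand, 147 and 111 bases before the start, and LMNB2, which did not pass the test, holds them 246 bases before it. CHR letters stood in 3 of the 10 member windows, against 11.1% of 16872 protein-coding promoters of the same length. E2F letters stood in BANF1 and LEMD3, against 17.2% of promoters, and CCAAT in 7 of the 10, against 35.9%. A match describes these letters only, and no match in the LEMD2 window says no more than that they are not in those 300 bases.

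LMNA encodes lamins A and C, which the gene-level table does not separate (chr1:156052364-156109872, plus strand, GRCh37). It held 13085, 13121 and 12158 normalized counts without induction (p21 OFF) and 10431, 11419 and 11599 with it (p21 ON). Every p21 ON library lay below every p21 OFF library, and the means were 12788 ± 546 and 11150 ± 629 (SD, n = 3 each). LMNA fell by 0.20 on the log2 scale (SE 0.06, 95% interval -0.33 to -0.07), with an adjusted p of 0.0281 by limma with Benjamini-Hochberg adjustment over all genes tested. The call was held in 10 of 15 alternative fits. It was lost with scaling by library size alone (log2 fold change -0.15, adjusted p = 0.0685), without the filter on low values (adjusted p = 0.0569), and without p21 OFF replicate 2 (adjusted p = 0.0920), p21 ON replicate 1 (adjusted p = 0.185) or p21 ON replicate 3 (adjusted p = 0.0507).

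LMNB1 encodes lamin B1, a farnesylated lamin that stays at the membrane (chr5:126112315-126172712, plus strand). Its normalized counts were 4663, 5077 and 4856 in p21 OFF and 3863, 3910 and 3950 in p21 ON. The p21 ON libraries were close together and all below the p21 OFF libraries, at means of 3908 ± 43.8 against 4865 ± 207 (SD, n = 3 each), or 80.3% of the uninduced level. The log2 fold change was -0.32 (SE 0.06, 95% interval -0.44 to -0.19, adjusted p = 0.000803), and 7.84% of all genes tested, LMNB1 included, had this value or a lower one. The gene was called in 15 of 15 alternative fits.

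LMNB2, the gene of the other B-type lamin (chr19:2427636-2456957, minus strand), held 1834, 2097 and 2146 normalized counts in p21 OFF and 1852, 1861 and 1972 in p21 ON. The groups overlapped, since replicate 1 of p21 OFF was the lowest of the 6 libraries. The log2 fold change was -0.09 (SE 0.07, 95% interval -0.24 to 0.05, adjusted p = 0.336). Without p21 OFF replicate 1, the library that stood apart, it was -0.16 with an adjusted p of 0.0348, the 1 alternative of 15 in which LMNB2 was called.

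**Figure D1:**
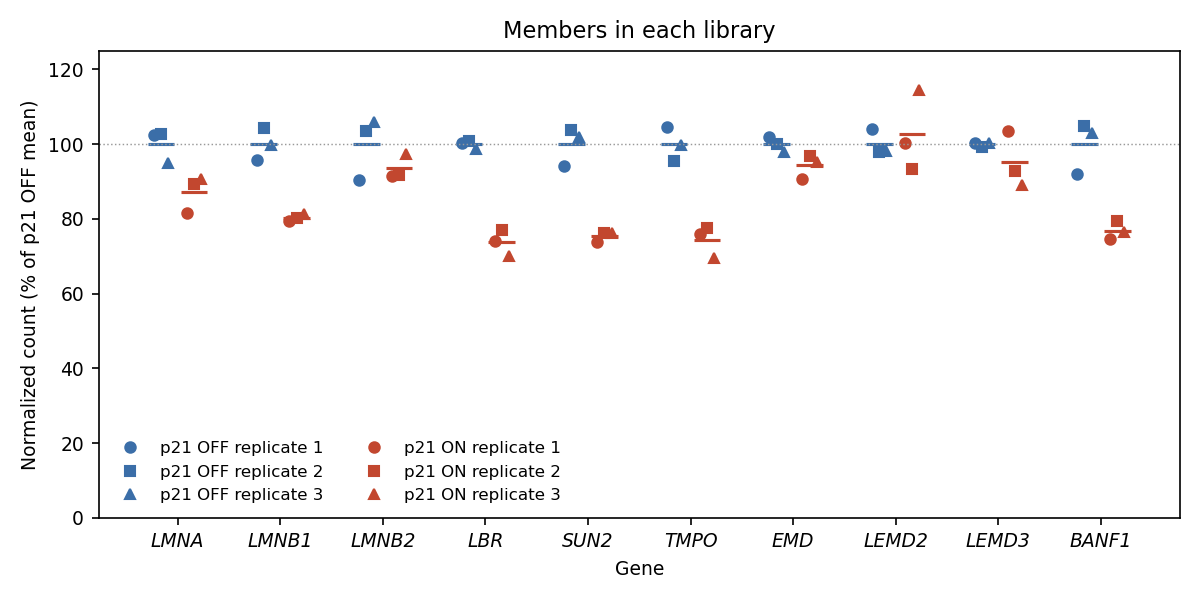
Normalized count of each of the 10 genes in each library, as a percentage of the gene's p21 OFF mean, for 3 p21 OFF (blue) and 3 p21 ON (red) libraries, with bars at the group means. The red points of LBR, TMPO, SUN2, BANF1, LMNB1, LMNA and EMD all lie below the blue ones, with p21 ON means from 73.8% (LBR) to 94.3% (EMD), and the points of LMNB2, LEMD2 and LEMD3 overlap.

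LBR, the lamin B receptor, spans the inner membrane, binds B-type lamins and heterochromatin protein 1 and carries a sterol reductase domain (chr1:225589204-225616627, minus strand). Its normalized counts were 3464, 3484 and 3408 in p21 OFF and 2560, 2659 and 2421 in p21 ON. All p21 ON libraries lay below the narrow p21 OFF range, and the means were 3452 ± 39.6 and 2547 ± 119 (SD, n = 3 each). LBR had the lowest log2 fold change of the 10 genes, -0.44 (SE 0.06, 95% interval -0.56 to -0.32, adjusted p = 3.27e-05), and 3.88% of all genes tested, LBR included, had this value or a lower one.

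SUN2 encodes an inner membrane protein that joins the lamina to nesprins of the outer membrane, in the LINC complex that couples the nucleus to the cytoskeleton (chr22:39129295-39190148, minus strand). It held 3354, 3699 and 3637 normalized counts in p21 OFF and 2629, 2720 and 2713 in p21 ON. The groups did not overlap, with means of 3564 ± 184 and 2687 ± 50.7 (SD, n = 3 each), and the log2 fold change was -0.41 (SE 0.06, 95% interval -0.53 to -0.28, adjusted p = 9.31e-05). Its annotated span overlaps DNAL4 on the same strand and GTPBP1 and other genes on the opposite strand, so reads in shared stretches are uncertain.

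TMPO encodes the lamina-associated polypeptide 2 isoforms, which share a LEM domain that binds BANF1 and of which several sit in the inner membrane (chr12:98909357-98944129, plus strand). Its normalized counts were 3662, 3343 and 3489 in p21 OFF and 2659, 2709 and 2436 in p21 ON. No p21 ON library reached the lowest p21 OFF library, the means were 3498 ± 160 and 2601 ± 145 (SD, n = 3 each), and the log2 fold change was -0.43 (SE 0.06, 95% interval -0.56 to -0.30, adjusted p = 8.8e-05). An exon of TMPO overlaps TMPO-AS1 on the opposite strand, and the strand setting of the counting is not given in the sources used here, so reads of the 2 genes may not have been separated. Reads may also be shared with the 2 annotated pseudogenes that carry the name of TMPO.

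The remaining LEM domain genes did not pass the test. EMD, which encodes emerin (chrX:153607633-153609934, plus strand), held 1939, 1901 and 1861 normalized counts in p21 OFF and 1724, 1842 and 1811 in p21 ON. All p21 ON libraries were lower, but by little, at means of 1900 ± 38.9 and 1793 ± 61.3 (SD, n = 3 each). The log2 fold change of -0.08 (SE 0.06, 95% interval -0.21 to 0.04) did not pass the test (adjusted p = 0.321).

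LEMD2, a LEM domain protein of the inner membrane that also takes part in resealing the envelope (chr6:33738979-33756907, minus strand), held 1159, 1091 and 1092 normalized counts in p21 OFF and 1116, 1041 and 1277 in p21 ON. LEMD3 (MAN1), which also binds SMAD proteins (chr12:65563363-65642135, plus strand), held 1062, 1051 and 1061 in p21 OFF and 1094, 982 and 944 in p21 ON. Both groups overlapped in each gene, and the p21 ON libraries were more spread than the p21 OFF libraries. The log2 fold changes were 0.03 for LEMD2 (95% interval -0.12 to 0.19, adjusted p = 0.774) and -0.07 for LEMD3 (95% interval -0.22 to 0.07, adjusted p = 0.459), so a fall of the size seen for LBR lay outside both intervals. The value of LEMD3 was -0.14 without p21 ON replicate 1 and -0.03 without p21 ON replicate 3, and was called in neither fit.

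BANF1 encodes barrier-to-autointegration factor, a small protein that bridges DNA and the LEM domains and helps gather the new nuclear envelope around chromosomes (chr11:65769699-65771620, plus strand). It was the lowest of the 10 genes in normalized counts, with 545, 620 and 610 in p21 OFF and 441, 470 and 453 in p21 ON. The groups did not overlap, the means were 592 ± 40.7 and 455 ± 14.6 (SD, n = 3 each), and the log2 fold change was -0.38 (SE 0.08, 95% interval -0.54 to -0.21, adjusted p = 0.00221). In the annotation 5 pseudogenes carry its name, so reads shared with copies make its level uncertain.

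In all, 6 of the 10 members were called lower, 0 higher and 4 in neither direction. Among all genes tested 23.2% were called, 12.7% lower and 10.5% higher. None of the 10 was higher at an unadjusted p under 0.05 in limma, and none was called higher by edgeR or DESeq2 on the recovered reads. The median log2 fold change of the members was -0.26, and that of all genes tested was 0.01, with the middle 50% of genes between -0.14 and 0.17. In 7 members every p21 ON library lay below every p21 OFF library, which held for 21.3% of all genes tested, and in none was the order the other way, which held for 19.1%. LBR, TMPO, SUN2, BANF1 and LMNB1 were each called in 15 of 15 alternative fits.

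**Figure D2:**
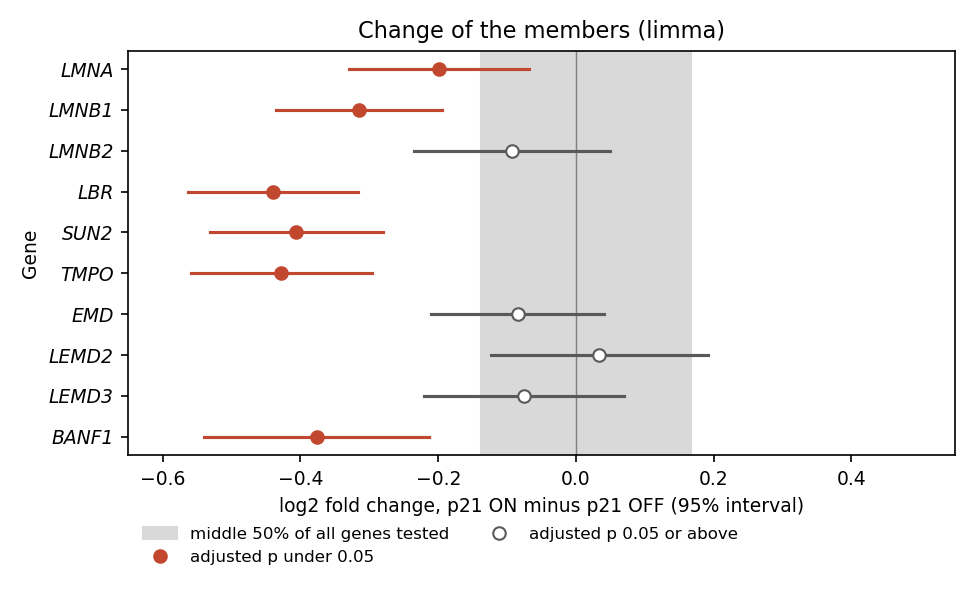
log2 fold change (p21 ON minus p21 OFF, limma on log2(normalized count + 1), 3 libraries per group) of the 10 genes with 95% intervals, filled red where the adjusted p was under 0.05, beside the middle 50% of all genes tested in grey. The intervals of LBR (-0.44), TMPO, SUN2, BANF1 and LMNB1 lie wholly below the grey band, whereas the intervals of LMNB2, EMD, LEMD2 and LEMD3 include 0.

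The members differ in whether the study's lists of cell cycle genes hold them. LBR is on both its stringent and its wider G2/M list, and LMNB1, TMPO, SUN2 and LMNA are on the wider list, whereas LMNB2, EMD, LEMD2, LEMD3 and BANF1 are on neither. All 5 genes on a G2/M list were lower, with a median log2 fold change of -0.41. Of the 5 on none, 1 was lower (BANF1), with a median of -0.08. For comparison, of the 403 genes of the wider list that were tested, 235 (58.3%) were lower and 5 higher, with a median of -0.30.

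Levels of different genes were compared per kilobase of exonic length, merged over all transcripts of a gene. In p21 OFF the order of the mean normalized counts per kilobase was LMNA (1571), LMNB1 (1339), EMD (953), LBR (605), SUN2 (427), TMPO (412), BANF1 (396), LMNB2 (375), LEMD3 (190) and LEMD2 (164). Neighbours from SUN2 to LMNB2 overlapped in their ranges over libraries and so did not differ beyond their spread. In p21 ON, LMNA (1370), LMNB1 (1076) and EMD (899) still led, and LMNB2 (351) stood above SUN2 (322), TMPO (306) and BANF1 (304) with this length only. With the length of the canonical transcript, LMNB2 stood below them in p21 ON, at 409 normalized counts per kilobase against 679, 629 and 622. The canonical length also put LEMD2 above LEMD3 in both groups, at 389 against 211 in p21 ON. The means of EMD and LMNB1 in p21 ON were then 1399 and 1352 normalized counts per kilobase, with overlapping ranges.

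**Figure D3:**
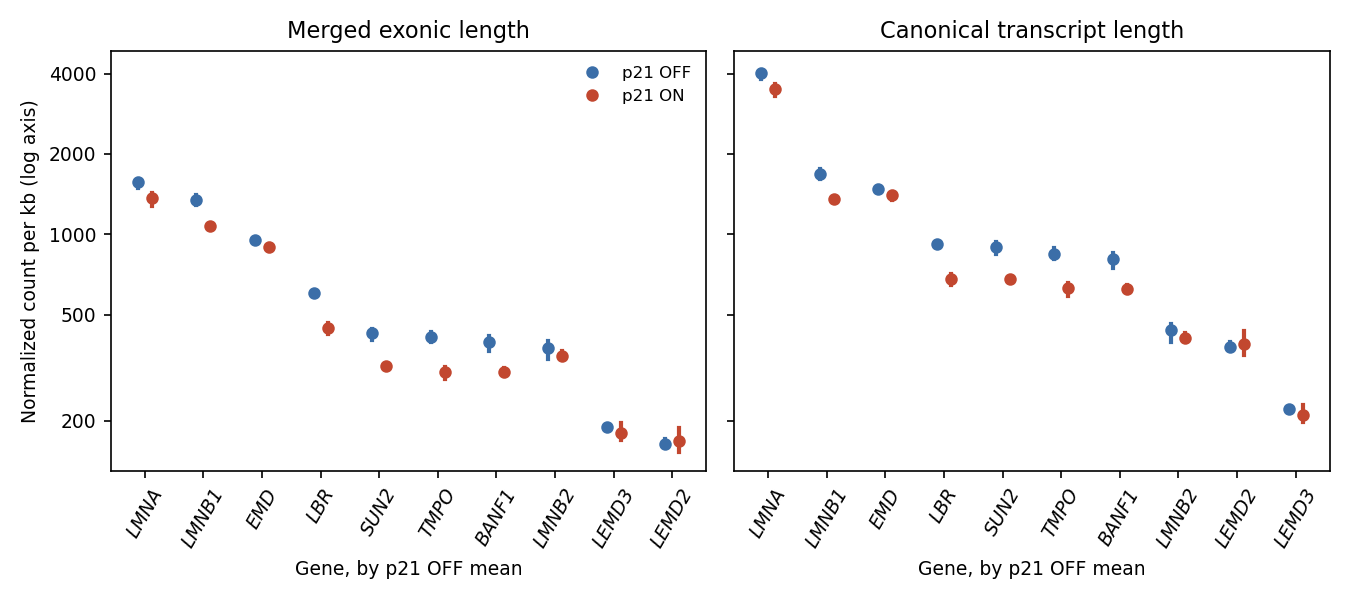
Normalized counts per kilobase of each gene on a log axis (points are means and bars span the lowest to the highest of 3 libraries) in p21 OFF (blue) and p21 ON (red), with the merged exonic length at left and the canonical transcript length at right. LMNA is highest in both panels, at 1571 and 4024 normalized counts per kilobase in p21 OFF.

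Because a ratio of 2 genes within a library does not depend on how libraries are scaled, 4 planned ratios were compared between the groups. The exact two-sided permutation test of 3 against 3 libraries cannot give a p below 0.1. The ratio of LMNB1 to LMNB2 was 2.41 ± 0.140 in p21 OFF and 2.06 ± 0.0526 in p21 ON (SD, n = 3 each), with no overlap and a log2 difference of -0.22 (exact p = 0.1, or 0.2 after Benjamini-Hochberg adjustment over the 4). LBR to LMNA was 0.270 ± 0.00876 and 0.229 ± 0.0186, also without overlap (log2 difference -0.24, exact p = 0.1, adjusted 0.2).

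The other planned ratios overlapped. LMNB1 to LMNA was 0.381 ± 0.0222 in p21 OFF and 0.351 ± 0.0167 in p21 ON (log2 difference -0.12, exact p = 0.2, adjusted 0.267). LMNB2 to LMNA was 0.159 ± 0.0182 and 0.170 ± 0.00732 (log2 difference 0.11, exact p = 0.4, adjusted 0.4), and the log2 difference was 0.018 without p21 OFF replicate 1 and 0.18 without p21 OFF replicate 3. Of 3 further ratios chosen after seeing the values, TMPO to EMD went from 1.84 ± 0.0710 to 1.45 ± 0.0997 and SUN2 to SUN1 from 0.958 ± 0.0448 to 0.706 ± 0.0256. Neither overlapped, but each pair sets a gene already seen to be lower over a gene that did not pass the test. The remaining pair sets SYNE2, a gene already seen to be higher, over SUN2, already seen to be lower. Its ratio went from 0.355 ± 0.0424 to 0.787 ± 0.127, without overlap. These ratios are therefore descriptions, and no p is read from them.

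**Figure D4:**
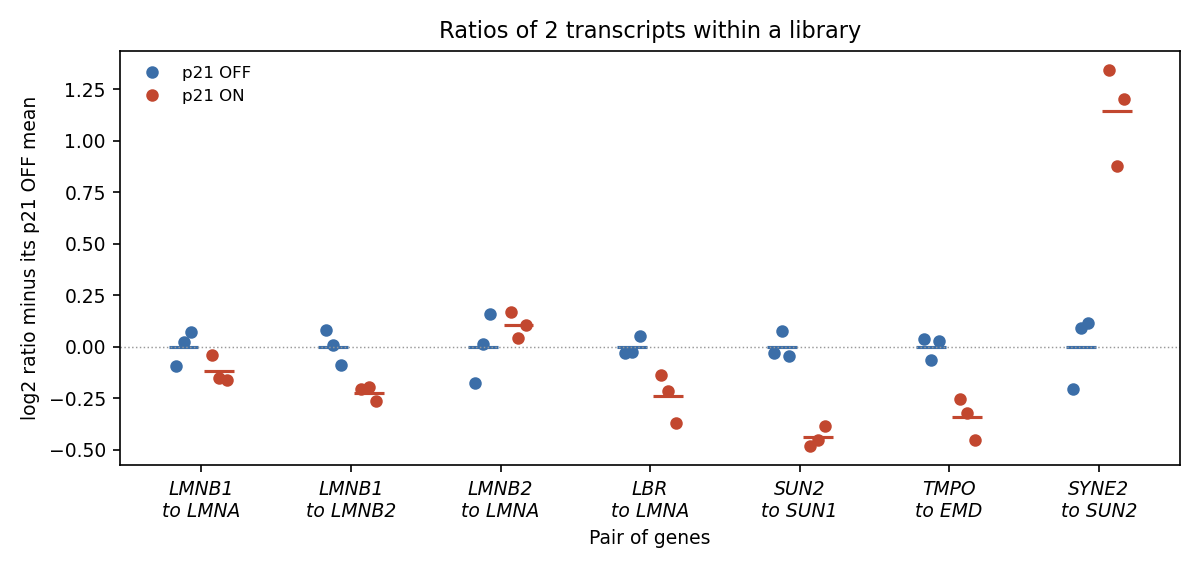
log2 ratio of 2 transcripts within each library, minus the p21 OFF mean of the ratio, for 7 pairs in p21 OFF (blue) and p21 ON (red), with bars at the means of 3 libraries. Among the planned pairs, the groups do not overlap for LMNB1 to LMNB2 and LBR to LMNA. They overlap for LMNB1 to LMNA and LMNB2 to LMNA. The groups also do not overlap for SUN2 to SUN1, TMPO to EMD and SYNE2 to SUN2, but these pairs were chosen after seeing the values.

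Of 43 other genes of the nuclear envelope, 41 were tested, and 4 were higher, 7 lower and 30 neither, with a median log2 fold change of -0.06. These counts stood near the background shares of 10.5% higher and 12.7% lower, so nothing is read from them about the group. Without p21 ON replicate 1 the number lower was 4. SUN2 pairs with nesprins, and the nesprin genes SYNE2 and SYNE1 were higher, unlike SUN2. SYNE2 held 1027, 1393 and 1391 normalized counts in p21 OFF and 2362, 1767 and 2208 in p21 ON (log2 fold change 0.74, SE 0.11, adjusted p = 9.91e-05). SYNE1 rose by 0.39 on the log2 scale (adjusted p = 0.00536). SUN1, another LINC complex gene, was at 3723 ± 181 in p21 OFF and 3808 ± 100 in p21 ON (SD, n = 3 each, log2 fold change 0.03, adjusted p = 0.716). SUN1 overlaps GET4 on the same strand, so its reads in shared stretches are uncertain. SYNE1 and SYNE2 have canonical transcripts of 27708 and 21822 bases. Across the 11340 tested genes with a length, the log2 fold change was higher for longer canonical transcripts (Spearman's rho 0.36, genes not being independent replicates), and 34.3% of the 533 genes of at least 10000 bases were called higher. The members that were lower have canonical transcripts of 731 (BANF1), 2890 (LMNB1), 3178 (LMNA), 3748 (LBR), 3960 (SUN2) and 4136 (TMPO) bases. Those of the members that did not pass the test have 1281 (EMD), 2941 (LEMD2), 4634 (LMNB2) and 4780 (LEMD3) bases. The part of length in the values of the nesprins and of the members was not tested.

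**Figure D5:**
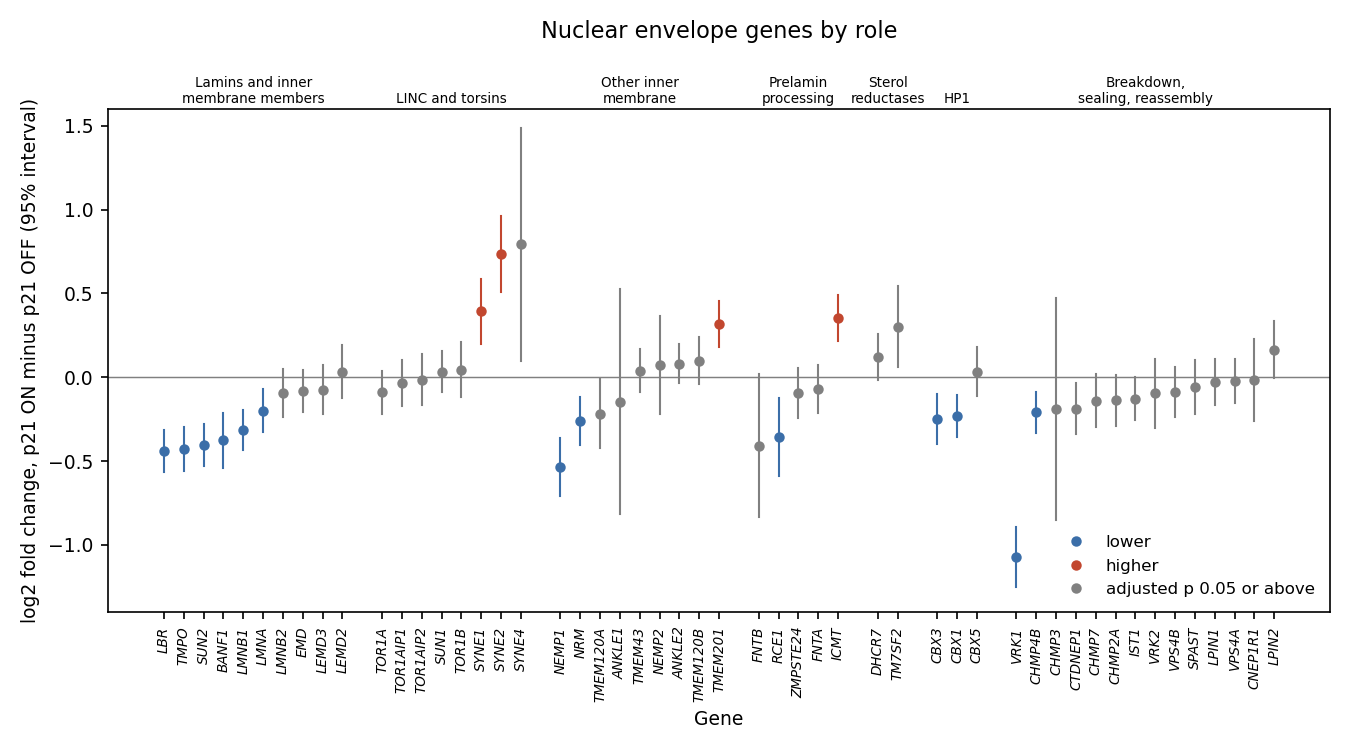
log2 fold change (p21 ON minus p21 OFF, limma, 95% intervals) of the 10 members and 41 other nuclear envelope genes in groups by role, coloured where the adjusted p was under 0.05. VRK1 is the lowest point, at -1.07, and SYNE2 (0.74) and SYNE1 (0.39) the highest of the genes that passed the test.

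Partners of the members moved as follows. VRK1, the kinase that releases BANF1 from DNA in mitosis, held 564, 521 and 504 normalized counts in p21 OFF and 247, 268 and 239 in p21 ON, and fell by 1.07 on the log2 scale (SE 0.08, adjusted p = 2.61e-08). CHMP4B, of the machinery that seals membranes, fell by 0.21 (adjusted p = 0.0158, or 0.0627 without p21 ON replicate 3 and 0.0514 with scaling by library size alone). The other 12 genes for breakdown, sealing and reassembly did not pass the test. Among heterochromatin protein 1 genes, whose products bind LBR, CBX1 (log2 fold change -0.23, adjusted p = 0.0101) and CBX3 (-0.25, adjusted p = 0.0176, a gene that overlaps HNRNPA2B1) fell, and CBX5 was at 0.03 (adjusted p = 0.764). Without p21 ON replicate 1 the adjusted p was 0.0784 for CBX1 and 0.0914 for CBX3, and without p21 ON replicate 3 it was 0.0851 for CBX3. Annotated pseudogenes carry the names of CBX3 (10), CBX1 (5), CBX5 (1) and CHMP4B (1), so reads shared with copies make these levels uncertain. The sterol reductases TM7SF2 and DHCR7, relatives of LBR, had log2 fold changes of 0.30 and 0.12, and neither passed the test, although without p21 OFF replicate 1 TM7SF2 was at 0.41 with an adjusted p of 0.00618.

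Enzymes that process prelamin A and B-type lamins at their tails moved both ways. ICMT, the methyltransferase of that pathway, rose by 0.35 on the log2 scale (adjusted p = 0.000939), RCE1, its protease, fell by 0.35 (adjusted p = 0.0276), and FNTA, FNTB and ZMPSTE24 did not pass the test. The call of RCE1 was lost without p21 OFF replicate 2 (adjusted p = 0.122) and without p21 ON replicate 1 (adjusted p = 0.166). It was also lost with DESeq2 on the recovered reads (adjusted p = 0.0548). Among other inner membrane proteins, NEMP1 (listed as TMEM194A) fell by 0.53 on the log2 scale (adjusted p = 0.000162), NRM fell by 0.26 on the log2 scale (adjusted p = 0.0109) and TMEM201 rose by 0.32 (adjusted p = 0.00245).

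LMNB1 is used as a senescence marker together with other transcripts. HMGB2 fell by 1.15 on the log2 scale (adjusted p = 1.14e-09), MKI67, a proliferation marker, by 0.90 (adjusted p = 3.46e-06), HMGB1 by 0.55 (adjusted p = 2.97e-05) and CDKN2A by 0.26 (adjusted p = 0.0114). HMGB2 and MKI67 are on both the stringent and the wider G2/M list of the study. HMGB1 is on its wider G1/S list, and CDKN2A is on none of these lists. Whether the cells were senescent was not tested. In the annotation 48 pseudogenes carry the name of HMGB1, and 1 each those of HMGB2 and MKI67, so reads shared with copies make these levels uncertain. The call of CDKN2A was lost without p21 ON replicate 1 (adjusted p = 0.0830) and without p21 ON replicate 2 (adjusted p = 0.0599). CDKN2B, GLB1, which encodes the lysosomal beta-galactosidase, and IGFBP3 did not pass the test, and IL1A, IL6, CXCL8 and MMP3, of the secretory response, stayed at or below 3.70 normalized counts and were not tested. The log2 fold change of LMNB1, -0.32, was smaller in size than those of HMGB2, MKI67 and HMGB1, and this difference was not tested.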

How the data were processed

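The authors prepared stranded mRNA libraries of SaOS-2 cells with inducible p21, 3 p21 OFF and 3 p21 ON. Per the submitters' processing notes, STAR, HTSeq and DESeq2 were used with hg19, and their versions and the strand setting are not given in the sources used here. The deposited table holds a signal per gene and library, the read count divided by the authors' size factor. In every library 100% of values were whole reads (tolerance 0.01) after multiplication by the size factor, which gave the read totals.

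The main test was limma 3.58.1 (lmFit, eBayes with trend) in R 4.3.3 on log2(normalized count + 1), restricted to genes averaging 10 or more, and calls needed a Benjamini-Hochberg adjusted p-value below 0.05. Fold changes are on that log2 scale. Over the 13255 genes tested, 1393 were higher and 1681 lower in p21 ON, and edgeR 4.0.16 (quasi-likelihood, TMM) on the recovered reads called 1401 and 1647.

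The 15 alternative fits were edgeR, DESeq2 1.42.0, TMM scaling, library-size scaling, pseudocounts of 0.1 and 10, no filter, at least 10 reads in every library, a replicate block, and each of 6 libraries left out. The canonical length, 3 of the ratios and the envelope list without heterochromatin protein 1 genes were added after seeing the data. The named genes were all members, up to 5 genes past the threshold per envelope list or else the 2 most abundant, senescence markers past the threshold, and RB1 and CDKN1A. Some genes under this rule are not reported here. Other genes were named after their values were seen. Members and lists were chosen with earlier results of these data known. Lengths, positions and sequences came from GENCODE 44 lifted to GRCh37. The fit was tested on simulated data in which all genes shared a setting for spread and no library stood apart. Such data do not show how the fit behaves with a library like p21 OFF replicate 1.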

Additional observations from a re-analysis of the deposited data

How the results depend on the processing

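LBR, TMPO, SUN2, BANF1 and LMNB1 kept their direction and call in all 15 alternative fits, and between 5 and 7 members were lower when 1 library was left out. Scaling by library size alone called 2034 genes higher and 1194 lower, 63.0% of calls higher against 45.3% with the deposited scaling. With 1 library left out, 692 to 1488 genes were higher and 888 to 1662 lower, and 4 to 8 other envelope genes were lower. The lowest counts came without p21 ON replicate 1 (692 higher, 888 lower, 4 envelope genes lower), and without p21 ON replicate 3 they were 739 and 1076. The log2 fold change of LEMD2 ranged from -0.047 to 0.10 with 1 library left out, the negative value coming without p21 ON replicate 3, and LEMD2 was called in no fit. LMNA and LMNB2 changed call as given beside their values. Calls were also lost for CBX1 (1 fit of 15), CBX3, CDKN2A and CHMP4B (2 each) and RCE1 (3), and gained for RB1 and TM7SF2 (2 each). The cause was not tested. Groups shared replicate numbers, but same-numbered libraries did not deviate together (correlations -0.06, -0.02 and -0.05), and none correlated best with its own number. With a replicate block, 6 members were lower and none higher, and 1407 genes were higher and 1513 lower. Each member had 379 or more reads in every library. For members that did not pass the test, the printed intervals give the sizes of change that these 3 libraries a group leave possible.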
